A study of Mus musculus with 4 samples.

Results

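Transcripts that are characteristic of neurons were followed in endothelial cells sorted from the brains of newborn mice. The set holds 33 genes, chosen by name from genes of neuronal structure, signalling and fate, out of 21578 genes with counts in the deposited tables. Of these 33 genes, 33 were found and 33 passed the filter on low counts. The mice were C57BL/6 pups at postnatal day 0 of the genotypes Pd1fl/fl and Pd1cKO-Tie2. Both genotypes carry the floxed Pd1 allele (Pdcd1, the immune checkpoint receptor PD-1), and Pd1cKO-Tie2 mice also carry Tie2-Cre. Tie2-Cre is driven by a promoter of the endothelial lineage that is also active in many blood cells. The study's methods describe brain endothelial cells sorted from minced cerebral cortices with antibodies to CD31 and CD45, in a protocol that then plates the cells for culture. Whether the cells that gave RNA were cultured first is not stated, and neither is a gate on CD45. There were 2 libraries per genotype, each made from total RNA. How many pups gave the cells of a library is not stated, so p-values measure the spread between these libraries, which may be technical.

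Neurons build axons and dendrites on microtubules and neurofilaments, release transmitter from vesicles through SNARE proteins, and keep their identity through RNA-binding proteins and transcription factors of the bHLH, T-box and homeobox families. At birth the mouse cortex is still adding young neurons, in which genes such as Dcx, Tubb3, Stmn2 and Sox11 are highly active. Endothelial cells line the vessels and are not known for most of these genes, although some cytoskeletal genes of the set, such as Stmn1 and Map1b, and the factor Sox11 are also used by other cells.

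The libraries held between 13714374 and 24146115 reads on listed genes, with Pd1cKO-Tie2 replicate 1 the deepest. Levels are given as CPM, the count divided by the TMM-scaled library total, and a library with 0 counts could hold up to 3, which is between 0.125 and 0.219 CPM and covers counting error only. Of Pdcd1, the deleted gene, 32 reads were counted in Pd1fl/fl replicate 1 and 0 in each of the Pd1cKO-Tie2 libraries. In Pd1fl/fl replicate 2 Pdcd1 was not listed and was set to 0, which can stand for fewer than 5 reads. It thus does not check the labels beyond Pd1fl/fl replicate 1. Xist, the RNA of the inactive X chromosome, was at 6706 and 378 counts in the Pd1cKO-Tie2 libraries and at 0 counts in either library of the controls, and the sex of the pups is not given. The 18 endothelial markers summed to 16774 and 15767 CPM in Pd1fl/fl and to 20353 and 21263 CPM in Pd1cKO-Tie2. Ptprc, which encodes CD45, was still at 86.4 and 139 CPM in Pd1fl/fl and at 54.6 and 67.9 CPM in Pd1cKO-Tie2.

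The neuronal transcripts were present in the endothelial libraries of both genotypes and the genotypes overlapped. Together they stood at 5573 and 6856 CPM in the Pd1fl/fl libraries and at 6837 and 5259 CPM in the Pd1cKO-Tie2 libraries. The genotype means were 6215 ± 907 and 6048 ± 1116 CPM (SD, n = 2), a ratio of 0.973 that lay well inside this spread. Members took between 0.507% and 0.710% of the reads of a library. Sox11, Map1b and Stmn1, which other cells also use, made up between 59.4% and 62.0% of the summed level. Without these 3 genes the sum was 2211 and 2782 CPM in Pd1fl/fl and 2721 and 1996 CPM in Pd1cKO-Tie2. With 2 libraries against 2, the smallest two-sided p that an exact permutation test can give is 0.333, so the sum was not tested. In bulk RNA, fewer neurons or neuronal fragments among the sorted cells and less neuronal RNA per cell cannot be told apart.

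**Figure D1:**
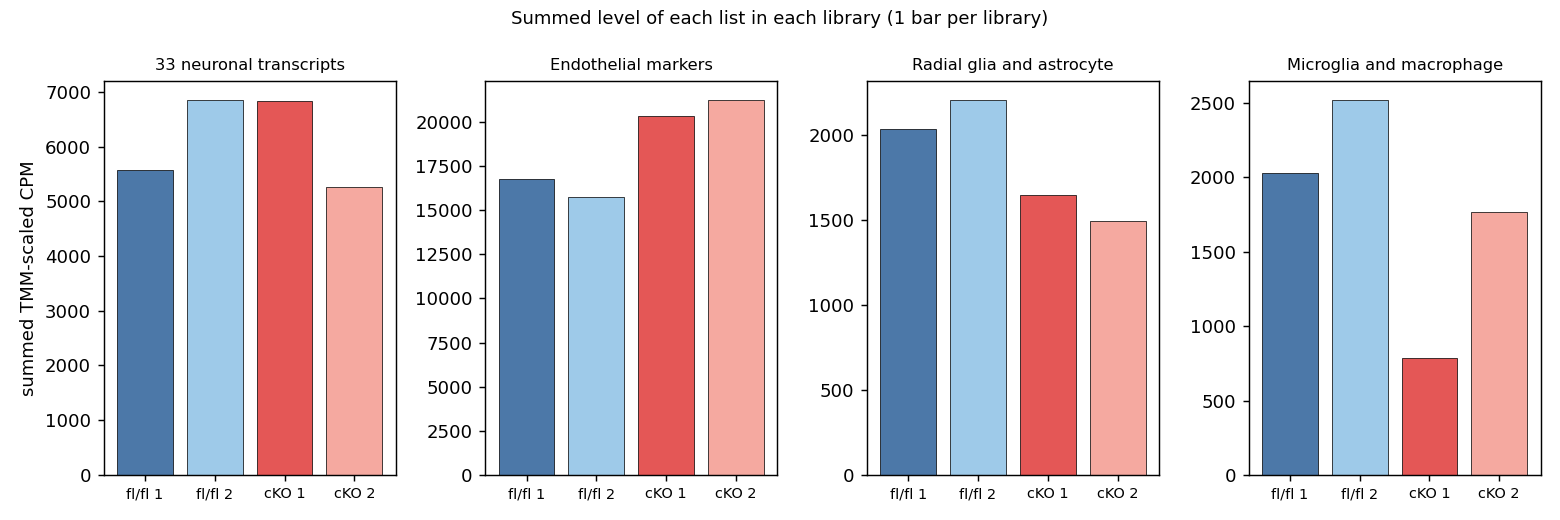
Summed TMM-scaled CPM of the 33 neuronal transcripts and of 3 marker lists, with 1 bar per library and axes that start at 0. The neuronal sum lay between 5259 and 6856 CPM with the genotypes overlapping, while the endothelial sum was higher in both Pd1cKO-Tie2 libraries than in both Pd1fl/fl libraries.

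No neuronal transcript met the study's criterion (2-fold or more, p no higher than 0.05) in edgeR's quasi-likelihood test. The count was 0 lower, where 2.61% of all 15909 tested genes were lower, and 0 higher, where 1.41% were higher. With Benjamini-Hochberg adjustment over the whole table, 0 members had an adjusted p under 0.05, as did 0% of all genes with edgeR, and the smallest adjusted p of a member was 0.808. An unadjusted p under 0.05 was reached by 0 members with edgeR, by 1 with DESeq2 (Elavl4) and by 2 with limma-voom (Elavl4 and Syt1). Among all genes these shares were 6.39% with edgeR, 7.22% with DESeq2 and 6.45% with limma-voom. DESeq2 called 0 members lower, 0 higher and 0 by an adjusted p, where it called 2.94%, 1.4% and 0.729% of all genes (116 of 15909 by the adjusted p). With limma-voom 0 members were called lower, 0 higher and 0 by an adjusted p, where the shares of all genes were 2.31%, 0.861% and 0%. The median log2 fold change, Pd1cKO-Tie2 minus Pd1fl/fl, was -0.02 over the members and -0.004 over all tested genes. It was above 0 for 15 members and below 0 for 18. The 95% interval stayed within a 2-fold change for 16 members and reached 2-fold or beyond for 17, so for the latter a 2-fold difference cannot be told from none with 2 libraries per genotype.

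**Figure D2:**
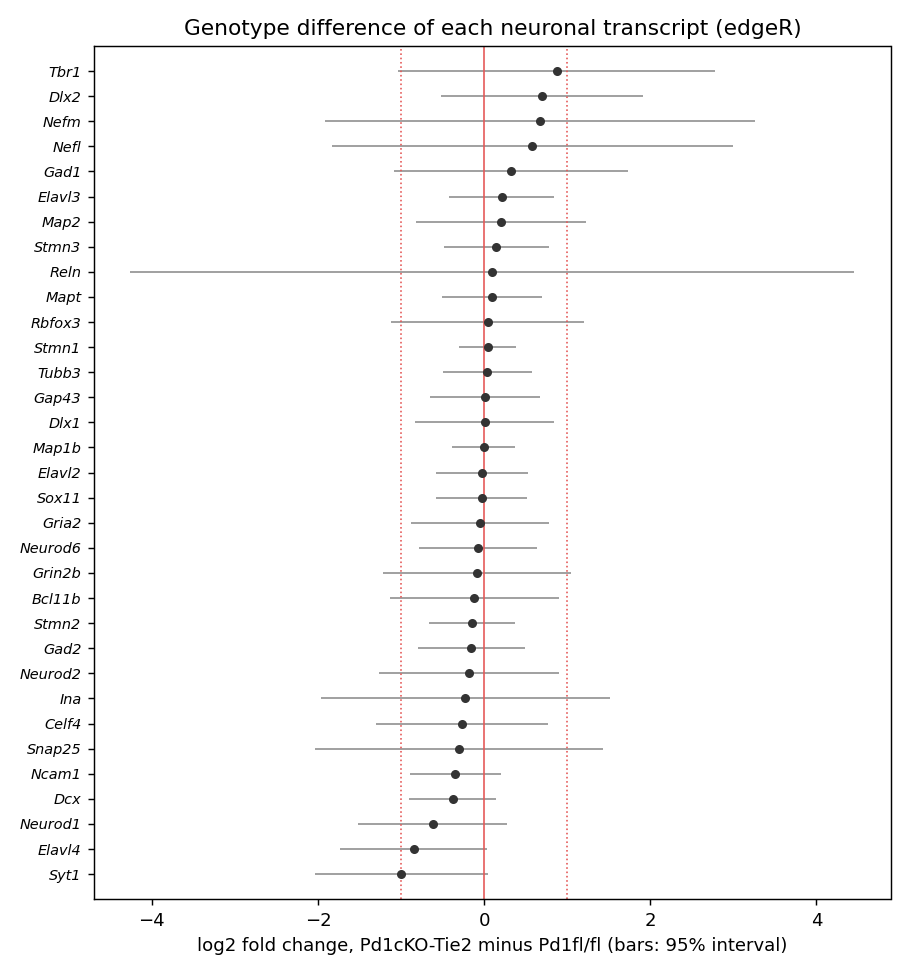
Log2 fold change of each of the 33 neuronal transcripts, Pd1cKO-Tie2 minus Pd1fl/fl, with its 95% interval from edgeR (bars). The solid line marks no difference and the dotted lines a 2-fold change, and every interval, from Tbr1 at the top to Syt1 at the bottom, crosses 0.

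Both Pd1cKO-Tie2 libraries lay below both Pd1fl/fl libraries for 3 members, Syt1, Elavl4 and Neurod1, where 18.1% of all tested genes did so. They lay above for 0 members, where 17.7% of all genes did. The remaining 30 members overlapped between the genotypes.

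Syt1 and Elavl4 had the smallest p-values of the set. Syt1 encodes synaptotagmin 1, the calcium sensor of fast transmitter release, on the minus strand of chromosome 10 (GRCm38, 108497650 to 109010982, ENSMUSG00000035864). It stood at 33.6 and 24.2 CPM in Pd1fl/fl and at 18.4 and 10.5 CPM in Pd1cKO-Tie2. Each of the Pd1cKO-Tie2 libraries was thus below each Pd1fl/fl library, with a log2 fold change of -0.995 (SE 0.42, adjusted p = 0.808, edgeR) and an unadjusted p of 0.0572. Scaled by library size alone, without TMM, its log2 fold change was -1.05 with a p of 0.0495, which met the criterion. Elavl4 encodes HuD, a neuronal protein that stabilizes messenger RNA, and lies on chromosome 4 from 110203722 to 110351909 on the minus strand (ENSMUSG00000028546). Its level was 46.8 and 54.4 CPM in Pd1fl/fl and 35.9 and 20.2 CPM in Pd1cKO-Tie2, again without overlap. The log2 fold change of Elavl4 was -0.85 (SE 0.36, adjusted p = 0.808) with an unadjusted p of 0.0574. In both genes Pd1cKO-Tie2 replicate 2 was the lowest library, and the 2 Pd1cKO-Tie2 libraries differed 1.75-fold in Syt1 and 1.77-fold in Elavl4.

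Reln had the widest gap between libraries. It encodes reelin, the secreted guidance protein of Cajal-Retzius cells and later of some interneurons, and lies on chromosome 5 from 21884454 to 22344702 on the minus strand (ENSMUSG00000042453). There were 475 and 595 counts in Pd1fl/fl, 1907 counts in Pd1cKO-Tie2 replicate 1 and 0 counts in Pd1cKO-Tie2 replicate 2. In CPM the first 3 libraries stood at 33.0, 41.9 and 79.8, which is at least 150-fold, 191-fold and 364-fold over the 3-count limit of the library with none. The other replicate of the same genotype was thus the highest of the 4 libraries. The fitted log2 fold change of 0.10 had an SE of 1.76 and averaged a library above and a library below both Pd1fl/fl libraries. Without Pd1cKO-Tie2 replicate 2, Reln was higher in Pd1cKO-Tie2 (log2 fold change 1.10, unadjusted p of 0.0209), and without Pd1cKO-Tie2 replicate 1 it was lower (unadjusted p of 5.4e-05, with a fitted size that depends on the prior count). Of the 6941 tested genes with at least 30 CPM in some library, 4 had 0 counts in another, and these were Reln, Xist and the neutrophil genes Mpo and Ngp. Among the 27 members at that level Reln was the only gene with a 0, and among 59 other neuronal genes at that level the number was 0.

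Start-site sequences of Syt1, Elavl4 and Reln are shown because these genes had the smallest p-values and the widest gap between libraries. Each runs from 250 bases before to 50 bases after an annotated start in RefSeq (GRCm38.p6), is written 5′ to 3′ on the minus strand, and has in capitals the letters of the E-boxes CAGATG and CAGCTG, which proneural bHLH factors are known to bind. The windows are chr10:109009062-109009361 for Syt1, chr4:110287462-110287761 for Elavl4 and chr5:22344656-22344955 for Reln. The table holds 2 windows for Syt1 and 4 for Elavl4, and of each gene's windows a single one was chosen that holds such letters, while 1 other window of Syt1 and 1 of Elavl4 hold neither E-box.
Syt1: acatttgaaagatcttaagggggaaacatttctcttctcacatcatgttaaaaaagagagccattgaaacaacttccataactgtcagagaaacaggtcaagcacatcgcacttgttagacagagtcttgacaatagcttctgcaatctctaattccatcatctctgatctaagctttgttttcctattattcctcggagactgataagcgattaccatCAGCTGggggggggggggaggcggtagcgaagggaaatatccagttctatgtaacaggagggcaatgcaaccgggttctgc
Elavl4: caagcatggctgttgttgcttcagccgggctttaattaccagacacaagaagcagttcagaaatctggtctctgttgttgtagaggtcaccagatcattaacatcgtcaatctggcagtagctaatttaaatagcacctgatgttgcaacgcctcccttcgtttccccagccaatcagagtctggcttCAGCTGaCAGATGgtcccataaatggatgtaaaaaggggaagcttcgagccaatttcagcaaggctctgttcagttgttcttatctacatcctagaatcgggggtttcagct
Reln: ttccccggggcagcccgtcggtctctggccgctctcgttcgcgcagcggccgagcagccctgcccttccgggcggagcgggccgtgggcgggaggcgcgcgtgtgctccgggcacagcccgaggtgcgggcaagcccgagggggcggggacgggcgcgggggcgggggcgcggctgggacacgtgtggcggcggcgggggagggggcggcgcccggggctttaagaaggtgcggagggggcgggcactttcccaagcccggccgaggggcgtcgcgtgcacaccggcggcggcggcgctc

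CAGCTG was in 1 of the 2 windows of Syt1 and in 2 of the 4 of Elavl4, and CAGATG was in 3 of the 4 of Elavl4. The windows at the outer ends of the Syt1 and Elavl4 genes held neither, as did the Reln window, which was the richest in G and C of the members' windows, at 80.7%. The median over the 33 windows of members was 57%, against 52.7% over all 32851 windows in the reference table. Searched on both strands, CAGATG was in a window of 5 of the 23 members matched (21.7%) and of 19.2% of all genes, and CAGCTG was in 6 members (26.1%) and in 18.3% of all genes. The letters of the RE1 element, which the repressor REST of neuronal genes binds, were searched as CAGCACC and GGACAGC. The first, CAGCACC, was in 2 members (8.70%) and 8.14% of genes, and GGACAGC was in 5 members (21.7%, Dlx1, Gad2, Gria2, Map2 and Tubb3) and 7.59% of genes. The longer TTCAGCACC was in 0 members and 0.433% of genes, and TATAAA was in 5 members (21.7%) and 15.7% of genes. A match of letters is a description and not a binding site.

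Microtubule genes held a large part of the reads of the members, and 8 of 8 overlapped between genotypes. Their sum was 2633 and 2812 CPM in Pd1fl/fl and 2937 and 2464 CPM in Pd1cKO-Tie2. Map1b, a microtubule-associated protein of growing axons, stood at 1052 and 977 CPM in Pd1fl/fl and at 1136 and 884 CPM in Pd1cKO-Tie2. Stmn1, the tubulin-binding stathmin of dividing and young cells, was at 658 and 616 CPM against 707 and 604 CPM. The 95% interval of the log2 fold change ran from -0.39 to 0.38 in Map1b and from -0.30 to 0.38 in Stmn1, the narrowest of the set. The neuronal stathmins Stmn2 (78.3 and 94.8 CPM against 78.3 and 78.3 CPM) and Stmn3 (96.1 and 95.4 CPM against 128 and 84.0 CPM) overlapped between genotypes. Tubb3, the neuronal beta-tubulin, was at 122 and 155 CPM against 159 and 126 CPM. Mapt, which encodes tau, was at 209 and 163 CPM against 235 and 162 CPM. Dcx, the doublecortin of migrating neurons, was at 298 and 427 CPM in Pd1fl/fl and at 299 and 259.7 CPM in Pd1cKO-Tie2 (log2 fold change -0.38, SE 0.21, adjusted p = 0.914). Map2, the dendritic counterpart of tau, varied most within Pd1fl/fl, with 119 CPM in replicate 1 and 282 CPM in replicate 2, a 2.36-fold gap. Its Pd1cKO-Tie2 libraries, at 195 and 267 CPM, lay between them.

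Neurofilament and growth cone genes were at very different levels. Gap43, a membrane protein of growth cones, stood at 134 and 103 CPM in Pd1fl/fl and at 143 and 95.2 CPM in Pd1cKO-Tie2. Nefl (4.44 and 1.97 CPM against 2.64 and 6.96 CPM) and Nefm (1.60 and 2.47 CPM against 4.06 and 2.42 CPM), the light and medium neurofilament subunits, were the lowest members, with 23 to 97 counts per library. Their exons share 1108 bases on opposite strands, and since the use of strand in counting is not stated, their reads are uncertain. Ina, the alpha-internexin of young axons, was at 13.5 and 7.47 CPM against 13.4 and 4.54 CPM, and 456 of its exon bases overlap Nt5c2 on the other strand. The within-genotype gaps of Nefl and Ina, up to 2.64-fold and 2.94-fold, were wider than their genotype differences.

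The 3 genes of vesicle release and adhesion, Syt1 included, were lowest in Pd1cKO-Tie2 replicate 2. Snap25, a SNARE protein of the presynaptic membrane on chromosome 2 from 136713453 to 136782428, was at 56.7 and 47.0 CPM in Pd1fl/fl and at 69.9 and 13.8 CPM in Pd1cKO-Tie2. The Pd1cKO-Tie2 libraries therefore took both the highest and the lowest place, 5.08-fold apart, and the genotype log2 fold change was -0.30 (SE 0.70, adjusted p = 1.00). Ncam1, a cell adhesion molecule that glia and other cells also make, was at 264 and 376 CPM against 276 and 228 CPM (log2 fold change -0.34, SE 0.22, adjusted p = 0.946).

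Among RNA-binding proteins, the Elavl genes other than Elavl4 overlapped between genotypes. Elavl2 was at 61.8 and 69.0 CPM in Pd1fl/fl and at 68.8 and 59.9 CPM in Pd1cKO-Tie2, and Elavl3 at 74.7 and 73.2 CPM against 102 and 69.1 CPM. Celf4, a regulator of neuronal messenger RNA, was at 49.5 and 88.9 CPM against 74.8 and 40.3 CPM. Rbfox3, the NeuN antigen of mature neurons, was at 23.5 and 12.9 CPM against 14.4 and 23.1 CPM. Celf4 and Rbfox3 overlapped too.

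Transcription factors of cortical neurons were led by Sox11, which maintains the young neuronal state and lies on chromosome 12 from 27334264 to 27342574. Sox11 stood at 1653 and 2481 CPM in Pd1fl/fl and at 2274 and 1775 CPM in Pd1cKO-Tie2 (log2 fold change -0.03, SE 0.22). It was between 29.7% and 36.2% of the summed level of the members, and without it the ratio of the genotype means was 0.970. Neurod6, a factor of pyramidal neurons, was at 126 and 174 CPM against 175 and 109.8 CPM. Neurod1 stood at 45.4 and 26.9 CPM in Pd1fl/fl and at 25.3 and 21.8 CPM in Pd1cKO-Tie2 (log2 fold change -0.62, SE 0.36, adjusted p = 0.925). The groups of Neurod1 did not overlap, but Pd1fl/fl replicate 2 and Pd1cKO-Tie2 replicate 1 were close. Neurod2 was at 19.1 and 42.1 CPM against 28.2 and 25.9 CPM, a 2.21-fold gap inside Pd1fl/fl. Bcl11b, the factor CTIP2 of deep-layer projection neurons, was at 64.6 and 86.3 CPM against 95.7 and 43.0 CPM. Tbr1, the factor of early-born cortical neurons on chromosome 2 from 61802930 to 61814114, was at 11.9 and 6.55 CPM in Pd1fl/fl and at 27.5 and 6.37 CPM in Pd1cKO-Tie2. Its log2 fold change of 0.88 was the highest of the set (SE 0.77, adjusted p = 1.00) and rested on Pd1cKO-Tie2 replicate 1, the other Pd1cKO-Tie2 library being the lowest of the 4.

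Apart from Gad2, the GABA neuron genes were higher in Pd1cKO-Tie2 replicate 1 than in replicate 2. With Reln, their sum was 188 and 257 CPM in Pd1fl/fl and 363 and 155 CPM in Pd1cKO-Tie2. The highest and the lowest library thus shared a genotype and lay 2.35-fold apart. Reln gave 33.0 CPM of the sum in Pd1fl/fl replicate 1 and 0 in Pd1cKO-Tie2 replicate 2. Nearly all of the gap between these libraries was thus Reln, and without it they were nearly equal. Gad1 and Gad2 were lowest in Pd1fl/fl replicate 1. Dlx2, a homeobox factor of ventral progenitors on chromosome 2 from 71543408 to 71546754, was at 50.3 and 57.8 CPM in Pd1fl/fl and at 129.5 and 45.2 CPM in Pd1cKO-Tie2 (log2 fold change 0.70, SE 0.49, adjusted p = 0.965). Its neighbour Dlx1 was at 44.0 and 61.9 CPM against 65.7 and 40.7 CPM. Gad1 and Gad2 encode the enzymes that make GABA. Gad1 was at 14.3 and 33.5 CPM against 41.3 and 18.5 CPM, and Gad2 at 46.4 and 61.7 CPM against 47.0 and 50.2 CPM. Gad2 was the only gene of this group in which the 2 Pd1cKO-Tie2 libraries were near each other (1.07-fold).

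Both glutamate receptor subunits overlapped between genotypes. Gria2, the AMPA receptor subunit that blocks calcium entry, was at 50.8 and 94.6 CPM in Pd1fl/fl and at 67.0 and 73.5 CPM in Pd1cKO-Tie2. Grin2b, the NMDA receptor subunit of young neurons, was at 17.3 and 16.3 CPM against 20.9 and 10.7 CPM.

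**Figure D3:**
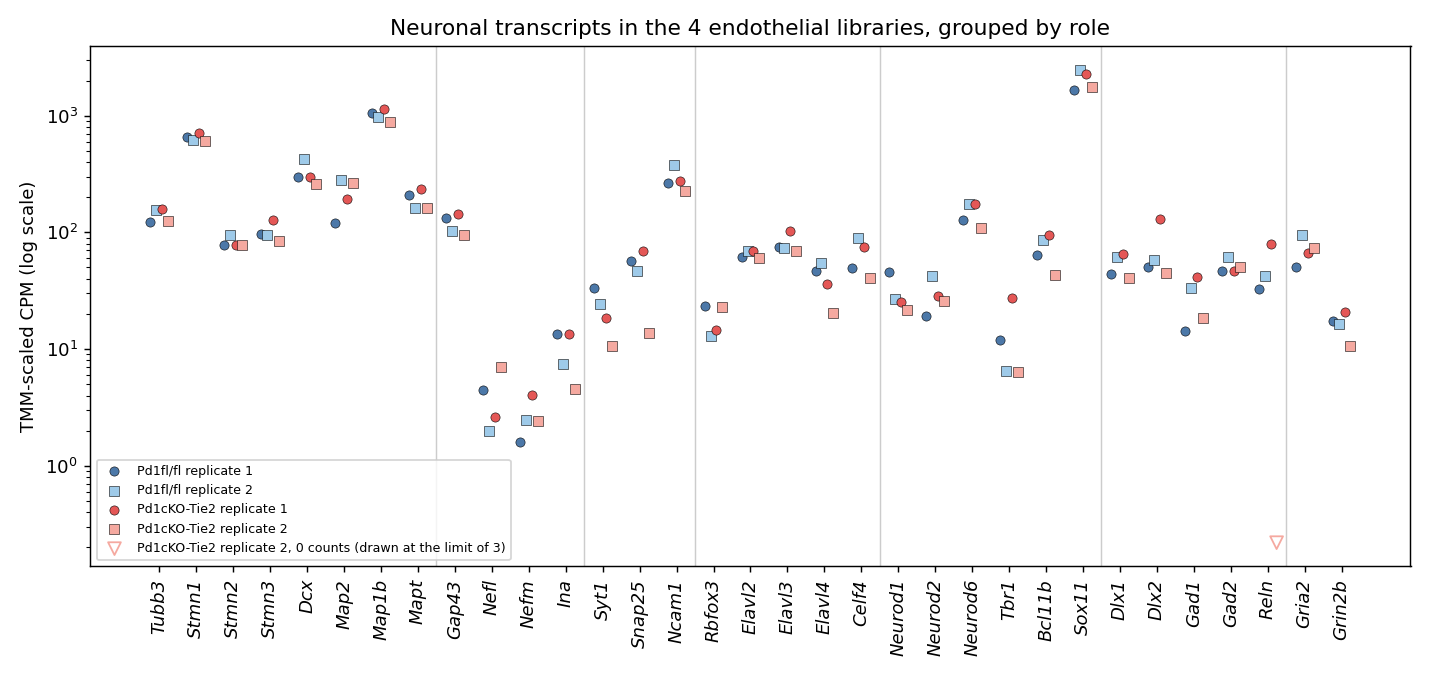
TMM-scaled CPM (log axis) of each of the 33 neuronal transcripts in each of the 4 libraries, grouped by role between the vertical lines. Levels run from 1.60 CPM in Nefm to 2481 CPM in Sox11, and the open triangle marks the 0 counts of Reln in Pd1cKO-Tie2 replicate 2, drawn at the 3-count limit.

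Most members differed in the same direction between the 2 Pd1cKO-Tie2 libraries, and pairs of libraries across the genotypes were lopsided too. Replicate 1 was above replicate 2 in 28 of the 33 members, while it was above in 49.9% of all tested genes. The median log2 ratio of replicate 2 to replicate 1 was -0.56 over the members, 0.07 over the 18 endothelial markers and 0 over all tested genes. Replicate 2 was the lowest of the 4 libraries for 23 of the 33 members, against 23.9% of all genes. Replicate 1 was the highest for 17 of the 33 members, against 24.3% of all genes. Across genotypes, Pd1cKO-Tie2 replicate 2 was below Pd1fl/fl replicate 2 in 31 members (median log2 ratio -0.35) and below Pd1fl/fl replicate 1 in 24. Pd1cKO-Tie2 replicate 1 was above Pd1fl/fl replicate 1 in 27 members (0.30) and above Pd1fl/fl replicate 2 in 20. Of all 15909 tested genes, 8207, 7845, 8020 and 7856 were on these sides, in the same order. By role, the sum was lowest in Pd1cKO-Tie2 replicate 2 in 5 of the 7 groups and lowest in Pd1fl/fl replicate 1 in the other 2, the transcription factors and the glutamate receptors. For the GABA neuron group, nearly all of the gap to Pd1fl/fl replicate 1 was Reln. With 1 library on either side of a ratio there is no replicate error, so these shares are descriptions. Between the Pd1fl/fl libraries, replicate 2 was above replicate 1 in 19 of the 33 members, against 50.6% of all tested genes. The median log2 ratio over the members was 0.22. A gap of at least 2-fold within a genotype was seen in 8 members in Pd1cKO-Tie2 and in 4 in Pd1fl/fl. The share of all genes with such a gap was not computed. In Pd1cKO-Tie2 the median absolute log2 ratio was 0.61 over the members and 0.46 over all tested genes. In Pd1fl/fl it was 0.46 and 0.47.

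**Figure D4:**
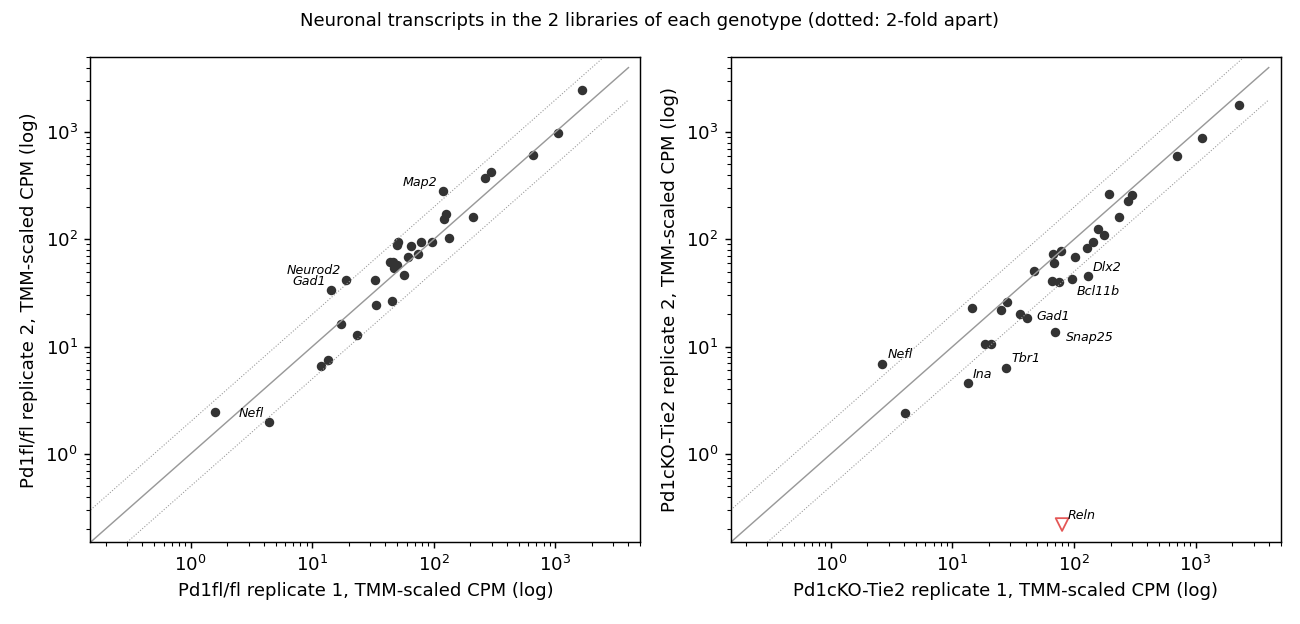
Level of each of the 33 neuronal transcripts in replicate 1 (horizontal) and replicate 2 (vertical) of Pd1fl/fl (left) and Pd1cKO-Tie2 (right), in TMM-scaled CPM on log axes, with equality as a solid line and 2-fold gaps dotted. On the right 28 of 33 genes lie below the line of equality, and Snap25, Tbr1, Dlx2 and Reln lie far below it.

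The sign of a member's fold change depended on which libraries were kept, in either genotype. It changed for 7 and 13 of the 33 members without Pd1fl/fl replicate 1 and replicate 2, and for 12 without either of the Pd1cKO-Tie2 libraries. Whether a member met the criterion also depended on which libraries were kept. Without Pd1fl/fl replicate 1, 2 members, Dcx (log2 fold change -0.61) and Ncam1 (-0.57), had an unadjusted p under 0.05, as did 5.87% of all tested genes. Without Pd1fl/fl replicate 2, 1 member did, Map2 (log2 fold change 0.96, unadjusted p of 0.00985), as did 6.09% of all tested genes. Without replicate 1, 4 members were lower by the criterion, Elavl4, Reln, Snap25 and Syt1, where 3.24% of all tested genes were. Without replicate 2, 3 members were higher, Dlx2, Reln and Tbr1, where 0.953% of all tested genes were. The smallest adjusted p of a member was 0.909 in the first and 0.928 in the second of these fits, in which the lone library is assumed to vary like the other genotype. Set against the endothelial markers, the members stood at 33.2% and 43.5% of the endothelial sum in Pd1fl/fl and at 33.6% and 24.7% in Pd1cKO-Tie2. These shares include Sox11, Map1b and Stmn1.

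Markers of other cells moved between libraries as well. The 16 radial glia and astrocyte markers summed to 2036 and 2209 CPM in Pd1fl/fl and to 1647 and 1494 CPM in Pd1cKO-Tie2, and 12 of the 16 had a log2 fold change below 0. By the criterion 2 of the 16 were lower and 1 was higher, where 2.61% and 1.41% of all tested genes were. Log2 fold changes among the 16 ran from -1.14 to 7.74 with a median of -0.76. The library values behind 7.74 are not given here, so it is not read as the size of a rise. Their most abundant genes were Ptprz1 (315 and 503 CPM against 243 and 192 CPM) and Slc1a3 (393 and 390.3 CPM against 242 and 211 CPM). The 12 microglia and macrophage markers summed to 2028 and 2522 CPM against 784 and 1768 CPM, so here Pd1cKO-Tie2 replicate 1 was the lower of its pair, opposite to the neuronal genes. Csf1r was at 508 and 620.4 CPM against 235 and 434 CPM, and C1qb at 487 and 512 CPM against 154 and 349 CPM. The 10 oligodendrocyte lineage markers summed to 209 and 123 CPM against 224 and 123 CPM, led by Olig1 (104 and 53.8 CPM against 129 and 59.0 CPM) and Cspg4, and they were higher in Pd1cKO-Tie2 replicate 1 than in replicate 2 as the neuronal genes were. Neutrophil markers summed to 914 CPM in Pd1fl/fl replicate 1 and to between 1.32 and 55.5 CPM in the others. Pericyte and smooth muscle markers summed to 5738 and 3745 CPM against 3832 and 3827 CPM, fibroblast markers to 129 and 51.7 CPM against 75.1 and 87.5 CPM, and erythroid markers to 646 and 557 CPM against 575 and 1070.3 CPM. Cell cycle genes summed to 579 and 545 CPM against 515 and 425 CPM. The part of these cells in the neuronal levels was not tested. Xist was counted in the Pd1cKO-Tie2 libraries only, and unequally between them. A part of the pups' sex therefore cannot be told apart from genotype or from the single library.

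Compared with each other per kilobase of exon, the neuronal transcripts covered a wide range. Stmn1 was the highest at 331 CPM per kb (median of the 4 libraries, range 314 to 368), followed by Sox11 at 244 CPM per kb (199 to 298). Their ranges did not overlap. Next came Stmn3 (84.3 CPM per kb), Gap43 (77.7), Tubb3 (75.2), Neurod6 (69.8) and Map1b (64.0), where the range over the libraries overlapped from each gene to the next. At the low end were Nefl (1.05 CPM per kb), Grin2b (0.677) and Nefm (0.422). The median over the members was 9.30 CPM per kb, against 3.76 over all tested genes and 104.6 over the endothelial markers. Levels per kb above the median of all tested genes were found for 24 members, and 13 stood above the lowest endothelial marker (11.7 CPM per kb). Map1b thus ranks below Tubb3 and Stmn3 per kb although it had more reads, since its exons span 15846 bases. Of the 50-base stretches of Stmn1, 18.9% are shared with other genes, chiefly the pseudogene Gm11223, so its level is uncertain to that extent.

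Other genes of neurons were taken from 6 lists, of immature neuron, synaptic, receptor and channel, cortical excitatory, inhibitory and neuronal progenitor genes. Of their 126 genes, 124 had counts and 121 were tested. The criterion was met by 2 genes that were lower in Pd1cKO-Tie2 and by 0 that were higher (1 with DESeq2, 0 with limma-voom), and 6 had an unadjusted p under 0.05. The share lower was 1.65%, below the 2.61% of all tested genes, and 6.39% of all genes had an unadjusted p under 0.05. The median log2 fold change of the 121 genes was -0.01. Both Pd1cKO-Tie2 libraries lay below both Pd1fl/fl libraries in 22 of them (18.2%, against 18.1% of all genes) and above in 18 (14.9%, against 17.7%). These shares were near or below those of all genes, so the 2 lower genes are given as values and not as a result about neuronal genes. The lower genes were a pair of glutamate receptors. Grik2, a kainate receptor subunit, stood at 30.8 and 30.5 CPM in Pd1fl/fl and at 14.1 and 8.86 CPM in Pd1cKO-Tie2 (log2 fold change -1.41, SE 0.38, adjusted p = 0.735, edgeR). Grm5, a metabotropic receptor that astrocytes also make, stood at 24.5 and 27.1 CPM against 10.9 and 9.96 CPM (log2 fold change -1.30, SE 0.35, adjusted p = 0.735). Neither gene overlapped between genotypes. The sums of the radial glia and astrocyte markers and of the microglia and macrophage markers were also lower in both Pd1cKO-Tie2 libraries, and the endothelial sum was higher. Any part of these cells in the levels of Grik2 and Grm5 was not tested.

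The most abundant genes of these lists did not pass the criterion. For immature neurons these were Tuba1a (2855 and 2817 CPM in Pd1fl/fl against 3361 and 2640 CPM in Pd1cKO-Tie2) and Nrep (1965 and 1779 CPM against 2283 and 2113 CPM). Of the synaptic list, Vamp2 was at 97.3 and 108 CPM against 94.1 and 71.0 CPM. Among receptors and channels, Cacna1e was at 44.5 and 39.9 CPM against 61.4 and 45.9 CPM. The excitatory list was led by Nfib (612 and 779 CPM against 567 and 569.8 CPM) and Nfia (371 and 322 CPM against 249 and 259 CPM), which glial precursors also express. Leading the inhibitory list were Ebf1 (209 and 192 CPM against 205 and 237 CPM) and Foxp1 (195 and 149 CPM against 194 and 182 CPM), and the progenitor list was led by Tubb5 (1641 and 1692 CPM against 1704 and 1600.2 CPM) and Btg2 (369 and 479.9 CPM against 326 and 359.9 CPM). Pd1cKO-Tie2 replicate 1 was above replicate 2 in 89 of the 121 genes, the same side as in the 33 transcripts of the set.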

How the data were processed

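Total RNA was extracted with TRIzol and sequenced on the Illumina platform, per the study's methods. The authors deposited 4 tables, each setting 1 Pd1cKO-Tie2 beside 1 Pd1fl/fl library, with whole-number counts of reads per gene that they had not normalized. The submitters' processing notes name mm9, TopHat2 2.0.12, Bowtie2 2.2.3 and HTSeq 0.6.0, but 90.0% of the gene positions in the tables equal GENCODE M21 on GRCm38, which was used here. The use of strand is not given in the sources used here. The 8 scaled columns and the authors' fold changes and p-values were not used. A gene is listed in a table if both libraries hold a count or 1 holds at least 5. The 10 broken lines were skipped, and genes not listed for a library were set to 0. A Pd1cKO-Tie2 column has a number found in no sample label and was used only as a library of that genotype. Replicates are numbered as the columns are.

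The counts were tested with edgeR 4.0.16 (R 4.3.3; filterByExpr by genotype, TMM scaling, quasi-likelihood F test), and p-values were adjusted by Benjamini-Hochberg over all 15909 genes tested. The study's methods give the criterion but name no test. Standard errors were the log2 fold change divided by the square root of F. The common biological coefficient of variation was 0.610. Alternatives were DESeq2 1.42.0, limma-voom, other filters and scalings, and leaving out each library. The scripts were tested on simulated data. Levels per kb used merged exons of GENCODE M21. The members and gene lists were chosen with earlier results of these data known. Values in every library are given for each member, and from each other list for genes past the criterion and the 2 most abundant, of which 2 genes are not reported here.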

Additional observations from a re-analysis of the deposited data

How the results depend on the processing

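Of the 33 neuronal transcripts, 0 were called under DESeq2, limma-voom, no filter, a minimum of 10 counts per library (which left 32 members, without Reln), RLE and upper quartile scaling. With library size alone 1 was lower, Syt1, where 468 of all 15909 tested genes were lower. Leaving out each library in turn, the members lower ranged from 0 to 4, the members higher from 0 to 3, and their median log2 fold change from -0.25 (without Pd1cKO-Tie2 replicate 1) to 0.17 (without Pd1cKO-Tie2 replicate 2). The log2 fold change of Reln was -12.04 without Pd1cKO-Tie2 replicate 1 and 1.10 without Pd1cKO-Tie2 replicate 2, the first a fit against 0 counts whose size depends on the prior count, and -2.53 with limma-voom. Members with both Pd1cKO-Tie2 libraries below both Pd1fl/fl libraries numbered 5 under RLE, upper quartile and library size scaling. With TMM they numbered 3, where 18.1% of all tested genes lay below. The share of all tested genes under the other scalings is not given, so the count of 5 is not a result about the members. In the other neuronal lists, 1 gene was higher with DESeq2 and 1 without a filter, where 223 of 15909 and 221 of 21578 of all tested genes were. There, leaving out each library gave 1 to 6 genes lower, 0 to 6 higher and a median from -0.22 to 0.18. The ratio of summed member levels stayed between 0.846 and 1.10 without each library (chosen after seeing the data). The cause of these shifts was not tested. No paired analysis was possible because the labels number the libraries 1 and 2 for the controls but 1 and 3 for the knockouts, so that the groups share only 1 number. With 2 libraries per genotype, 17 of 33 members have an interval that reaches a 2-fold change.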

Other observations

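REST, the repressor that keeps neuronal genes silent outside neurons, and its cofactors were read as a separate list. Of these 11 genes, 11 were tested and 0 met the criterion with edgeR, and 0 had an unadjusted p under 0.05. Rest stood at 58.1 and 49.0 CPM in Pd1fl/fl and at 57.2 and 38.5 CPM in Pd1cKO-Tie2. Its corepressor Rcor1 was at 31.5 and 34.1 CPM against 35.3 and 51.4 CPM. The most abundant genes of the list, the phosphatase Ctdsp2 (140.0 and 78.2 CPM against 110.4 and 139.5 CPM) and the deacetylase Hdac1 (96.1 and 62.6 CPM against 113 and 73.9 CPM), overlapped between genotypes. The median log2 fold change of the list was 0.25, and 5 of the 11 genes had both Pd1cKO-Tie2 libraries above both Pd1fl/fl libraries, where 17.7% of all tested genes did.

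Vip, a neuropeptide of some interneurons, was singled out after its values were seen. It had 392 counts in Pd1cKO-Tie2 replicate 1 (16.4 CPM) and 0 counts in both Pd1fl/fl libraries. In Pd1cKO-Tie2 replicate 2 Vip was not listed and was set to 0, which can stand for fewer than 5 reads. The level in replicate 1 is 74.8-fold over the highest 3-count limit of the other 3 libraries, a limit that does not cover unlisted reads. Vip was below the filter on low counts, so it has no test.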
